A study of Rattus norvegicus with 8 samples.

Results

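Lactate leaves and enters cells through monocarboxylate transporters, and the lactate exported comes from glucose that was taken up and committed to glycolysis. The genes described here are 10 that sit at the 2 ends of that route. They include the transporters Slc16a1, Slc16a3 and Slc16a7, and Bsg, the chaperone of Slc16a1 and Slc16a3. The others are the lactate dehydrogenase subunits Ldha and Ldhb, the glucose transporter Slc2a1, the hexokinases Hk1 and Hk2, and the regulator Pfkfb3. The 10 genes were found by exact gene name among the non-control spots of the arrays. All 10 were present, with 15 probes and 42 spots per array, out of 36174 gene names and 45598 distinct probes in all.

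RNA came from NR8383, a macrophage line that was established from the lung lavage of a normal rat and is distributed by ATCC. The cells had been carried to passage 200 (P200) or were at passage 20 (P20), with 4 replicates of each, which the labels call biological. Both groups were a mix of adherent and free-floating cells, grown in DMEM with heat-inactivated fetal bovine serum, glutamine, penicillin, streptomycin and amphotericin B, were harvested 48 h after seeding, and received no other treatment. It is a single continuous line, and the labels do not say whether the replicates were kept as separate cultures through the passages, so p-values measure the spread between these 8 samples. The series compared expression in the same line at high and low passage.

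As background, each of the transporters Slc16a1, Slc16a3 and Slc16a7 carries lactate together with a proton. Slc16a1 (MCT1) works in either direction with high affinity, Slc16a7 (MCT2) has a higher affinity still, and Slc16a3 (MCT4) is the low-affinity form used for export by strongly glycolytic cells. Bsg, also called CD147 or basigin, brings Slc16a1 and Slc16a3 to the cell surface. Macrophages that are activated by bacterial products or held at low oxygen raise glycolysis, and in such cells Slc16a3, Slc2a1, Hk2, Ldha and Pfkfb3 are known as induced genes.

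Each gene was read through synthetic 60-base probes, and the values below stand or fall with those sequences. Shown 5′ to 3′ are the probe of Slc16a3, which carries the change described below, those of the other 2 transporters, the single probe of Hk1, which gave no measurable signal, and the 3 Ldha probes, which differed among themselves. Positions are those in the files, on assembly rn4, and no rn4 gene annotation was used here, so the exon or untranslated part a probe falls in is not stated.
Slc16a3, chr10:110163119-110163178, plus strand: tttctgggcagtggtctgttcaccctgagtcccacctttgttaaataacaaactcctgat
Slc16a1, chr2:199879777-199879836, plus strand: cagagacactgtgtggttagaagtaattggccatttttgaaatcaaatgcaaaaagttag
Slc16a7, chr7:65210155-65210214, minus strand: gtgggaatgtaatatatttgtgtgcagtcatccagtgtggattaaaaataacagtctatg
Hk1, no position in the files: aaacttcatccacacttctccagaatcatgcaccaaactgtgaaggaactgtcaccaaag
Ldha A_44_P1164248, chr1:97412488-97412547, plus strand: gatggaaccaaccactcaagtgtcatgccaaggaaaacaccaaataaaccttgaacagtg
Ldha A_64_P016403, chr1:97412370-97412429, plus strand: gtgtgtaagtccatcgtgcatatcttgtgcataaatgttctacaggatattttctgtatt
Ldha A_44_P1362456, chr1:97411929-97411988, plus strand: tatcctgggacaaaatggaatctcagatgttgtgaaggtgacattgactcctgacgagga
Among the 105 pairs that the 15 probes form, the longest run of bases shared by both members of a pair was 8, so the probes of the 3 transporters do not share long stretches with each other. Of the 60 bases, 45% were G or C in the Slc16a3 probe and 35% in the Slc16a1 and Slc16a7 probes.

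Levels are given as log2 of the background-subtracted spot signal relative to the 75th percentile of its own array, so 0 is the level of a fairly bright probe. The level of one probe is not comparable with that of another. A probe counts as above background on an array when the scanner software marked at least 0.5 of its usable spots well above background. Of the 15 probes, 11 were above background on all 8 arrays and 3 on none. The remaining one, that of Slc16a3, was above background on no P200 array and on all 4 P20 arrays. A total of 8 genes entered the test, which was limma across 15651 genes with Benjamini-Hochberg adjustment and a threshold of 0.05, while Slc16a7 and Hk1 did not enter.

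All 8 arrays were on 1 slide and in 1 scan, and between 51.02% and 54.47% of spots were above background. The macrophage identity of the line was visible in both groups: 8 of 10 macrophage markers were above background on all 8 arrays, including Cd68, Csf1r, Ptprc and Lyz2, while Adgre1 was on none and Marco on 1 P200 array. Of 5 alveolar macrophage markers, Siglec5, Pparg and Fabp4 were above background on all 8 arrays and Car4 and Chi3l3 on none. None of 7 lung epithelial and none of 4 lymphocyte markers was above background on all arrays, but 2 of 5 fibroblast and 3 of 4 endothelial markers were. Of the line's own markers, 3 were lower at P200 along with Slc16a3: Siglec5 by -1.69 (limma adjusted p = 1.85e-05), Cd14 by -0.91 (adjusted p = 0.00258) and Itgam by -0.78 (adjusted p = 0.00515), on the log2 scale. Of the markers of other cell types, Col1a2, Dcn, Pecam1, Cdh5 and Vwf entered the test between passages, and none passed. The lung epithelial and lymphocyte markers did not enter it. The log2 of the summed endothelial markers lay between 3.97 and 4.26 at P200 and between 3.83 and 4.08 at P20, and that of the fibroblast markers between 2.76 and 3.06 at P200 and between 2.63 and 2.85 at P20, so the groups overlapped for both. The part of these markers in the results was not tested.

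Of the 8 tested genes, Slc16a3 alone passed the test, and it was lower at P200. The signal of the lactate exporter was not above background in any P200 culture, while Slc16a1, Bsg, Ldha, Ldhb, Slc2a1, Hk2 and Pfkfb3 did not pass. Over all tested genes 5.53% were lower by the same test, 5.99% were higher and 11.5% were either. The 7 others changed by between -0.15 and 0.12 on the log2 scale, with adjusted p between 0.214 and 0.866 by limma. Their 95% intervals spanned the range from a fold of 0.797 to a fold of 1.22. The median change of the 8 was -0.06, beside a median of 0.00 over all tested genes.

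**Figure D1:**
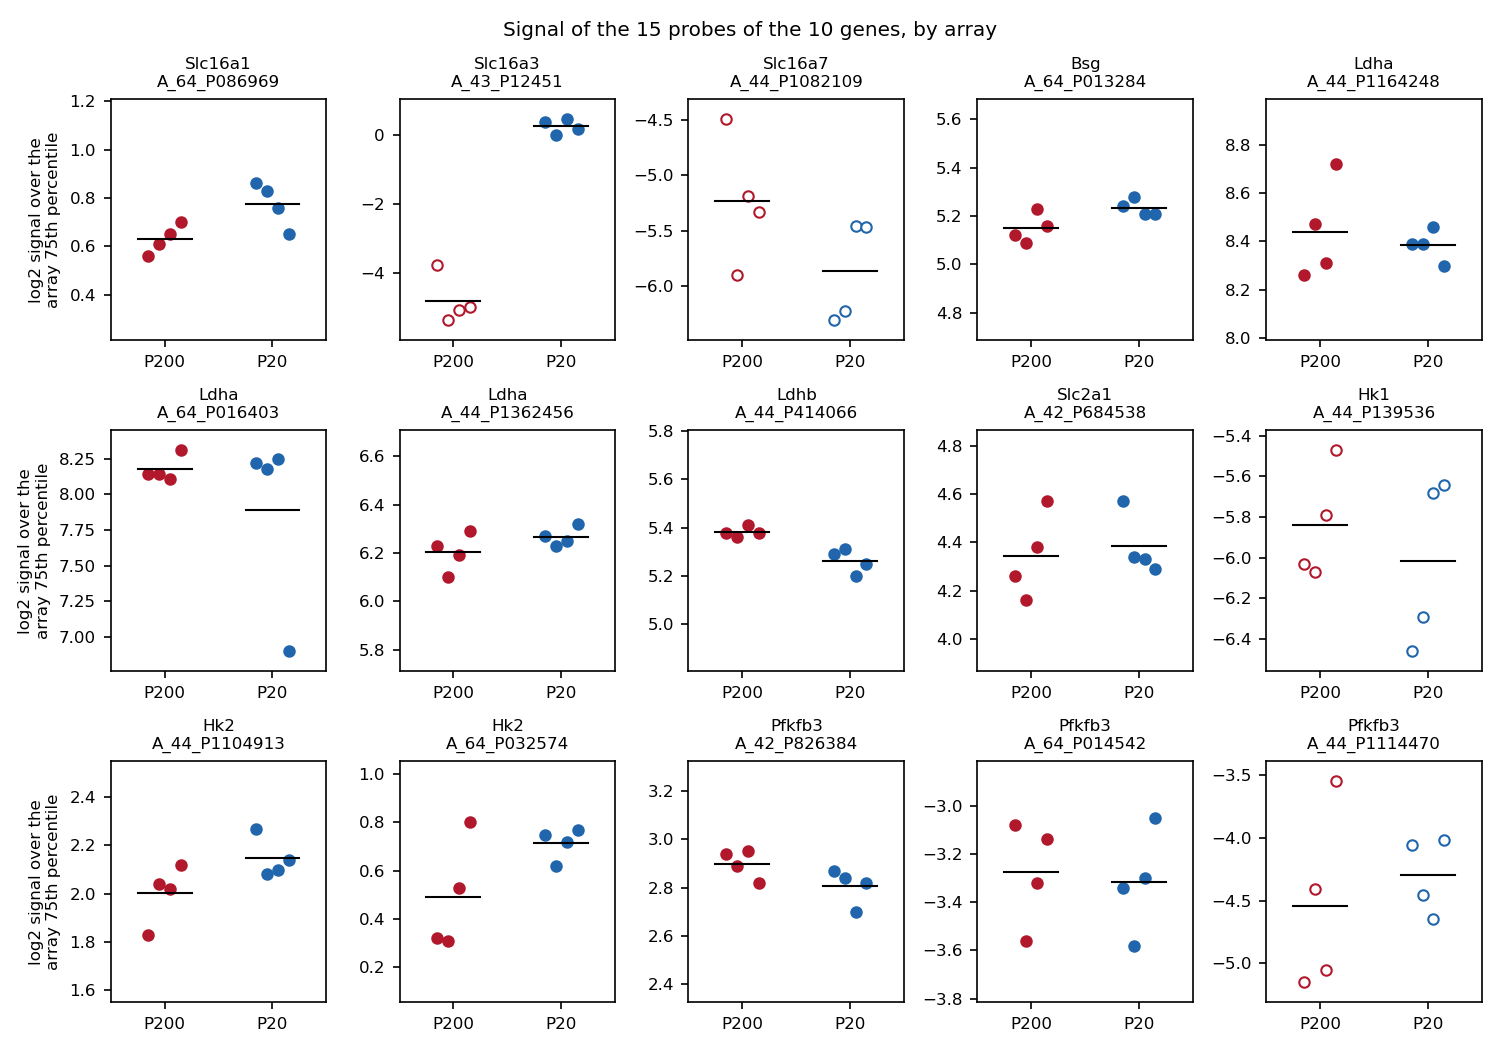
Level of each of the 15 probes on each of the 4 P200 arrays (red, left) and the 4 P20 arrays (blue, right), as log2 signal over the array's 75th percentile. Lines are group means, open circles are arrays on which the probe was not above background, and each panel has its own axis; the groups lie far apart for Slc16a3, narrowly apart for Ldhb, and overlap in the other 13 panels.

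Slc16a3 read -3.79, -5.39, -5.08 and -5.00 in the P200 cultures, against 0.39, 0.01, 0.48 and 0.19 in the P20 cultures. All 4 P200 values lay below all 4 P20 values, and replicate 1 gave the highest P200 value. In processed signal the median spot of the probe read 28.8, 6.88, 9.13 and 5.02 at P200, against 432, 321, 378 and 353 at P20. On P200 replicates 1 to 4, 0, 4, 2 and 6 usable spots held a substitute value set by the scanner software. On each P20 array 0 did. The substitute values are part of the readings and of the fit. The fitted change was -5.09 ± 0.31 on the log2 scale (SE, n = 4 per group, 95% interval -5.80 to -4.37, limma adjusted p = 1.11e-05). Since the P200 signal was within background, its true level is not known, and the fold depends on the floor that is set. On each P200 array the value was raised, where it was lower, to the lowest signal of any probe above background on that array. Against the resulting mean of -4.30, Slc16a3 was 23.7-fold lower at P200 than at P20. This is not a strict minimum. On P200 replicate 1 a spot at -3.62 was not marked above background, although the floor of that array was -4.79. In such bulk RNA, fewer cells that use the gene and less of its RNA in each cell cannot be told apart.

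The array carries the Slc16a3 probe at 10 separate spots, which gives a check within each array. On the P20 arrays all 10 spots were well above background, and their levels had an SD of 0.06 to 0.09. Of the P200 arrays, replicate 1 had 4 of 10 spots above background and replicates 2, 3 and 4 had 0 of 10, 0 of 9 and 0 of 10. The SD over the P200 spots was 0.37 to 0.63, with the substitute values included. Replicate 1 read highest and alone had spots above background. Replicates 2, 3 and 4 had none, so the order among those 3 carries little weight.

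**Figure D2:**
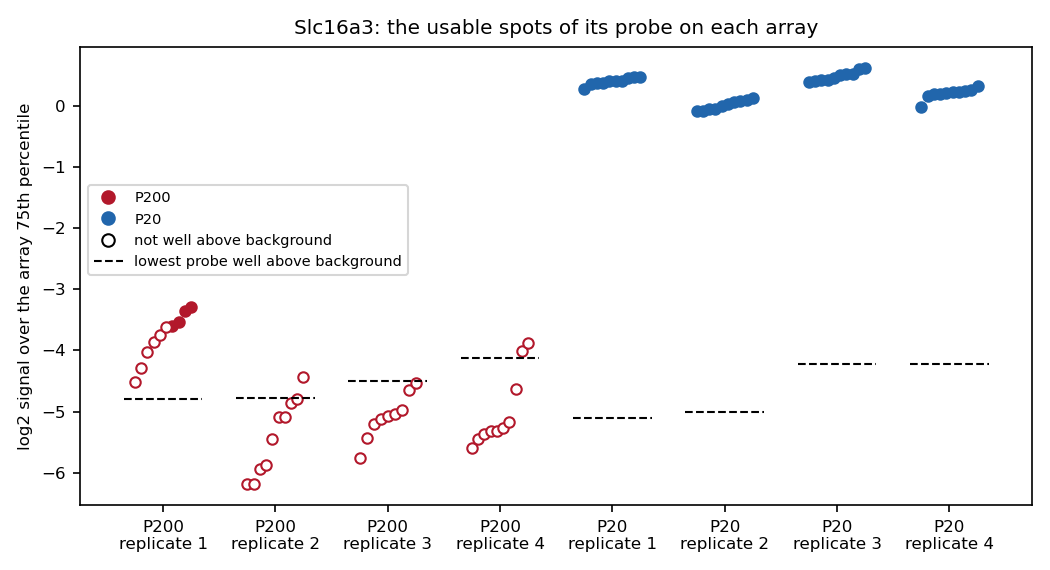
Each usable spot of the Slc16a3 probe, as log2 signal over the array's 75th percentile, on the 4 P200 arrays (red, left) and the 4 P20 arrays (blue, right), with spots not well above background as open circles. The dashed line is the lowest probe above background on that array; the P20 spots cluster tightly with SDs of 0.06 to 0.09, and filled spots at P200 are found in replicate 1, where 4 of 10 are above background.

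The change was seen in both rows of the slide. One row held 3 P200 arrays and 1 P20 array, and there Slc16a3 averaged -5.16 at P200 and read 0.39 at P20. The other row held 1 P200 array and 3 P20 arrays, and there it read -3.79 at P200 and averaged 0.23 at P20. With the row as a block the change was -4.78 (limma adjusted p = 6.98e-05). Leaving out each array in turn gave changes between -5.43 and -4.89, with limma adjusted p no higher than 0.000104. The size of the change did depend on how background was handled, and both values below are smaller than the 23.7-fold value. With normexp background correction it was -2.38 ± 0.10, and with the uncorrected spot median -2.76 ± 0.12, with limma adjusted p of 1.78e-07 and 2.93e-07.

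Slc16a3 was not alone in this pattern. Of all tested genes, 105, or 0.671%, were above background on all P20 arrays and on no P200 array and passed the test as lower.

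Slc16a1, the transporter that works in either direction, was above background on all 8 arrays and did not pass the test. It read 0.56, 0.61, 0.65 and 0.70 at P200, against 0.86, 0.83, 0.76 and 0.65 at P20, and the groups overlapped. The change was -0.15 ± 0.07 (limma adjusted p = 0.238), a fold of 0.904 with a 95% interval of 0.812 to 1.01, so a level below 0.812 of that at P20 lies outside the interval. Slc16a7, the form with the highest affinity, was not above background on any array, at -4.49, -5.90, -5.19 and -5.33 in P200 and -6.31, -6.23, -5.46 and -5.47 in P20 cultures. Nothing can be said of its change at this signal.

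The unequal change of the exporter and Slc16a1 was compared within each array, where scaling between arrays drops out. Slc16a3 minus Slc16a1 was -4.35, -6.00, -5.73 and -5.70 at P200, against -0.47, -0.82, -0.28 and -0.46 at P20. The difference between the groups was -4.94, and every P200 array lay below every P20 array. Slc16a1 varied little between arrays, so this separation repeats the change of Slc16a3 given above and is no separate support for it. An exact two-sided permutation test over the 70 splits of the arrays gave p = 0.0286, the smallest these 8 arrays allow, and 0.0571 after adjustment over the 2 pairs of genes compared. With Slc16a3 raised to the lowest signal above background the difference was -4.42, with the same exact p. The pair therefore did not pass after adjustment, and this number of arrays could not have brought one such pair below 0.0571 unless the other pair was also at the limit.

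Bsg, whose protein both transporters need to reach the surface, did not pass the test. It read 5.12, 5.09, 5.23 and 5.16 at P200, against 5.24, 5.28, 5.21 and 5.21 at P20. The change was -0.08 ± 0.06 (limma adjusted p = 0.46), with a fold of 0.945 and a 95% interval of 0.864 to 1.03.

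Ldha encodes the dehydrogenase subunit that favours the making of lactate from pyruvate, and Ldhb the subunit that favours the reverse. The brightest Ldha probe, A_44_P1164248, read 8.26, 8.47, 8.31 and 8.72 at P200, against 8.39, 8.39, 8.46 and 8.30 at P20. The groups overlapped, and the change was 0.06 ± 0.10 (limma adjusted p = 0.803), a fold of 1.04 with a 95% interval of 0.883 to 1.22. Without P200 replicate 4 the change was -0.04. The probe A_44_P1362456, which is printed at 10 spots, gave the tightest reading of the gene, at 6.23, 6.10, 6.19 and 6.29 for P200 and 6.27, 6.23, 6.25 and 6.32 for P20, with a change of -0.06 ± 0.06 (limma adjusted p = 0.611).

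The remaining Ldha probe, A_64_P016403, differed from the other 2 on one array. It read 8.14, 8.14, 8.11 and 8.31 at P200, against 8.22, 8.18, 8.25 and 6.90 at P20, and the low value of P20 replicate 4 rests on 1 spot. On that array the other Ldha probes read 8.30 and 6.32, close to their values on the other P20 arrays. The change by this probe was 0.29 ± 0.28 (limma adjusted p = 0.614 over all entering probes), and without P20 replicate 4 the difference between group means was -0.04.

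Ldhb was the one gene besides Slc16a3 whose groups did not overlap. It read 5.38, 5.36, 5.41 and 5.38 at P200, against 5.29, 5.31, 5.20 and 5.25 at P20, from a probe at 10 spots that maps over 2029 bases at chr4:180061921-180063949, minus strand. The change of 0.12 ± 0.05 did not pass (unadjusted p = 0.0512, limma adjusted p = 0.214), and its fold of 1.09 had a 95% interval of 0.999 to 1.18. Of all tested genes 9.49% had groups that did not overlap with P200 higher, 10.1% with P200 lower and 19.6% either way, beside 1, 1 and 2 of the 8 genes here. Ldha minus Ldhb within an array was 2.88, 3.11, 2.91 and 3.34 at P200, against 3.10, 3.08, 3.27 and 3.05 at P20, a difference of -0.07 (exact two-sided permutation p = 0.629).

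**Figure D3:**
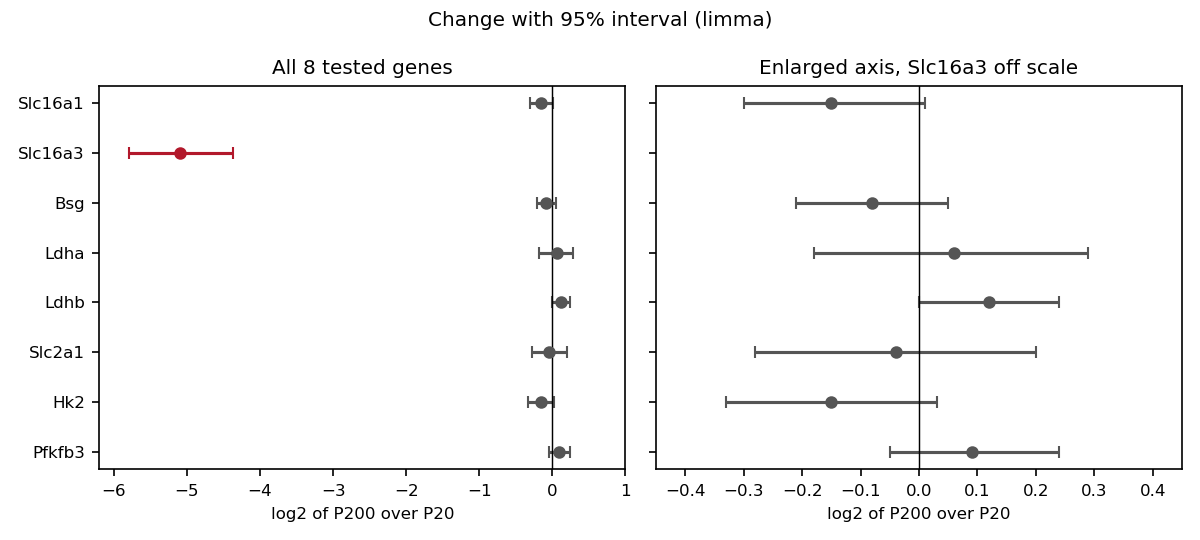
Fitted log2 change of P200 over P20 with its 95% interval for the 8 tested genes, on an axis that holds Slc16a3 (left panel) and on an enlarged axis that leaves Slc16a3 off scale (right panel). Slc16a3 stands at -5.09, and the 7 intervals on the right stay between -0.33 and 0.29 and all cross 0.

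Glucose entry was measured through Slc2a1 (GLUT1), the main glucose transporter of many cultured cells, at chr5:139718779-139718838. It read 4.26, 4.16, 4.38 and 4.57 at P200, against 4.57, 4.34, 4.33 and 4.29 at P20. The groups overlapped throughout, the change was -0.04 ± 0.10 (limma adjusted p = 0.866), and the fold of 0.973 had a 95% interval of 0.826 to 1.15.

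Hk2, the inducible hexokinase that traps glucose in the cell, had 2 probes on chromosome 4. The brighter one read 1.83, 2.04, 2.02 and 2.12 at P200, against 2.27, 2.08, 2.10 and 2.14 at P20, a change of -0.15 ± 0.08 (limma adjusted p = 0.318) and a fold of 0.903 with a 95% interval of 0.797 to 1.02. The dimmer one gave -0.22 ± 0.11 (limma adjusted p = 0.283), with values of 0.32, 0.31, 0.53 and 0.80 at P200 and 0.75, 0.62, 0.72 and 0.77 at P20. Both probes were lower on average at P200 and both had overlapping groups. With the slide row as a block the change of Hk2 was -0.24 (limma adjusted p = 0.0688), the lowest adjusted p that any setting gave for one of the 7 genes. Hk1, the hexokinase used by most tissues, gave no array above background, with values from -6.07 to -5.47 at P200 and from -6.46 to -5.64 at P20 on its single probe.

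Pfkfb3 makes the sugar bisphosphate that activates phosphofructokinase, and so sets the pace of the committed step. Its brightest probe, at chr17:78270574-78270633, read 2.94, 2.89, 2.95 and 2.82 at P200, against 2.87, 2.84, 2.70 and 2.82 at P20. The change was 0.09 ± 0.06 (limma adjusted p = 0.436), with a fold of 1.07 and a 95% interval of 0.966 to 1.18. A dimmer probe of the same gene, A_64_P014542, gave 0.05 ± 0.14 (limma adjusted p = 0.886), and the remaining probe was above background on no array.

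The genes around these steps were read from 6 lists, chosen for the steps next to the 10 genes. Beside the counts of each list stand the shares over all tested genes, 5.99% higher and 5.53% lower. Of 31 genes of monocarboxylate and pyruvate handling 18 were tested, of which 2 were higher, 2 were lower and 14 did not pass, with a median change of -0.02. Slc16a6, another member of the transporter family, read -1.20, -1.25, -1.41 and -1.30 at P200, against -0.61, -0.83, -0.76 and -0.60 at P20, and was 1.51-fold lower (-0.59 ± 0.08, limma adjusted p = 0.00135, and -0.39 with the uncorrected spot median). Slc16a14, a further family member, was 1.76-fold lower (-0.81 ± 0.20, limma adjusted p = 0.0336). That call was lost in 7 of the 8 fits with 1 array left out, all but the one without P200 replicate 3, with limma adjusted p of up to 0.0876, and the change was -0.32 with normexp correction (adjusted p = 0.0692).

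Higher at P200 were Ldhd, the mitochondrial dehydrogenase of D-lactate, by 1.41-fold (0.50 ± 0.07, limma adjusted p = 0.00283), and Pdk2, a kinase that switches off pyruvate dehydrogenase, by 1.40-fold (0.49 ± 0.07, limma adjusted p = 0.00294). Ldhd read 0.85, 0.85, 1.02 and 0.80 at P200, against 0.36, 0.52, 0.29 and 0.34 at P20. Pdk2 read 2.71, 2.82, 2.82 and 2.98 at P200, against 2.26, 2.38, 2.32 and 2.41 at P20. Neither pair of groups overlapped.

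In hexose uptake and phosphorylation 8 of the 16 genes on the array were tested, of which 1 was higher, 0 were lower and 7 did not pass, with a median change of -0.04. The gene that passed was Slc2a5 (GLUT5), a fructose transporter, which was 6.98-fold higher at P200. It read 0.66, 0.77, 0.81 and 1.12 at P200, against -1.76, -1.72, -2.21 and -2.16 at P20, and it was above background on all 8 arrays. The change of 2.80 ± 0.14 had a limma adjusted p of 3.39e-06, and it passed in every setting that was run. Its size was smaller with normexp background correction, at 1.89, and with the uncorrected spot median, at 2.15.

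At the phosphofructokinase step 7 of 9 genes were tested, of which 1 was higher, 0 were lower and 6 did not pass, with a median change of -0.19. The gene that passed was Fbp1, the fructose bisphosphatase that runs the opposite reaction, at 3.63-fold higher. It read -0.81, -1.93, -1.72 and -1.64 at P200, against -3.54, -3.01, -3.93 and -3.06 at P20, and was above background on all 4 P200 and 3 of 4 P20 arrays. The change was 1.86 ± 0.28 (limma adjusted p = 0.00284), or 0.85 with normexp background correction (adjusted p = 0.00316).

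None of the 11 tested genes of lower glycolysis passed in either direction by limma, and 0 of them had an unadjusted p under 0.05. Their changes lay between -0.16 and 0.15, with a median of -0.05. The lowest adjusted p belonged to the enolase Eno1 (-0.16 ± 0.09, adjusted p = 0.337) and the pyruvate kinase Pkm (0.12 ± 0.07, adjusted p = 0.374). In the pentose phosphate route, which branches off after hexokinase, 0 of 7 genes passed by limma and 2 had an unadjusted p under 0.05. These were the transaldolase Taldo1 (0.16 ± 0.06, adjusted p = 0.129) and the transketolase Tkt (0.33 ± 0.13, adjusted p = 0.167). The share of all tested genes with an unadjusted p under 0.05 was not taken, so such counts are not read as high or low.

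Since Slc16a3 is a known target of the hypoxia-inducible factor, genes of that factor and its other targets were read as well. Of 23 genes 18 were tested, of which 2 were higher, 0 were lower and 16 did not pass, with a median change of -0.05. Adm, which encodes the vasodilator peptide adrenomedullin, was higher by 0.34 ± 0.09 (limma adjusted p = 0.039), and P4ha2, a subunit of collagen prolyl hydroxylase, by 0.28 ± 0.07 (limma adjusted p = 0.0263). The call of Adm was lost in 7 of the 8 fits with 1 array left out, all but the one without P200 replicate 4, and that of P4ha2 in 6, all but those without P200 replicate 1 or 4, with limma adjusted p of up to 0.114 and 0.0775. With the replicate number as a block Adm and P4ha2 had adjusted p of 0.0507 and 0.0647, and with the slide row as a block 0.149 and 0.108. Of these 18 genes 7 had an unadjusted p under 0.05 by limma, with no share over all tested genes at hand. Groups did not overlap for 5 with P200 higher and for 2 with P200 lower, beside 9.49% and 10.1% of all tested genes. The part of the factor in the change of Slc16a3 was not tested.

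**Figure D4:**
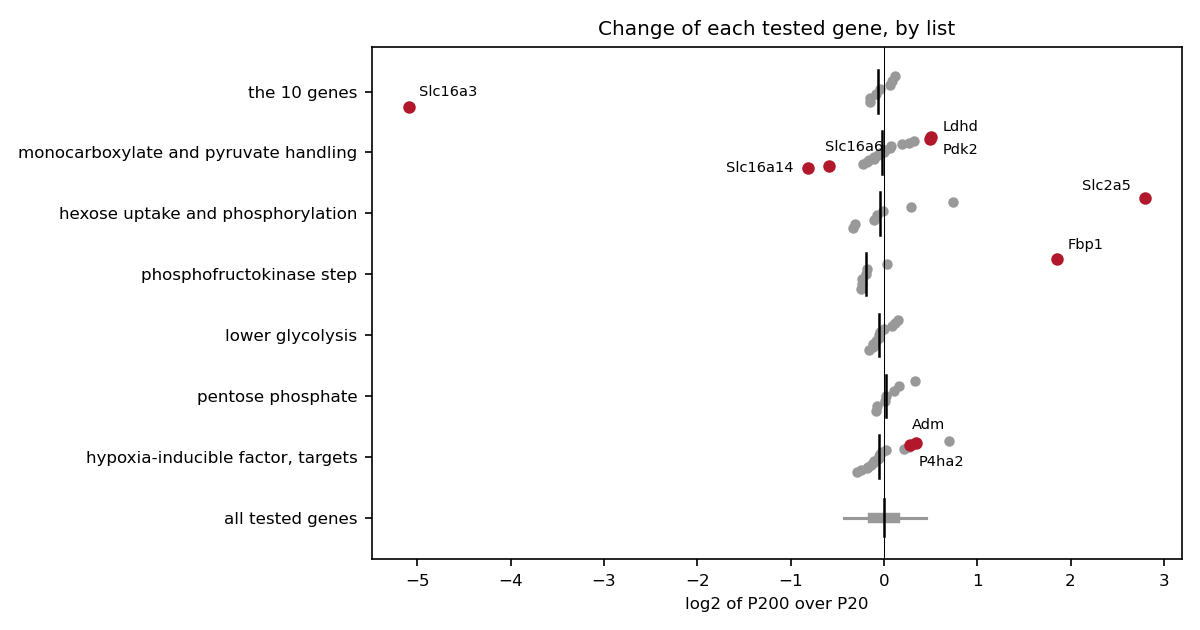
Log2 change of P200 over P20 for each tested gene of the 10 described and of the 6 surrounding lists, with genes that passed the test in red and named, and list medians as black bars. The bottom line gives all 15651 tested genes, with the middle from -0.12 to 0.12 (thick) and the 5th to 95th percentile from -0.43 to 0.45 (thin); list medians lie between -0.19 and 0.02, while Slc16a3, Slc2a5 and Fbp1 stand away from them.

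None of the tested genes next to Slc16a3 on chromosome 10 had a change near its size. Such a size was rare, with 0.0703% of all tested genes changing by more in either direction, so its absence among the neighbours says little. Within 500 kb on either side of its probe, by the rn4 positions in the files, 33 genes were tested, with a median change of 0.06 and a range of -0.52 to 1.27. The nearest, the kinase gene Csnk1d at 3.1 kb, changed by -0.07 ± 0.05 (limma adjusted p = 0.525). Of the 33 genes 3 were higher and 3 were lower, beside 5.99% and 5.53% of all tested genes. Pycr1, an enzyme of proline synthesis at 132.2 kb on the other side, was higher by 1.27 ± 0.07 (limma adjusted p = 4e-06, and 0.76 with normexp correction). RGD1306926 was higher by 0.61 ± 0.11 (adjusted p = 0.00955) and the transcript ENSRNOT00000054974 beside it by 0.63 ± 0.15 (adjusted p = 0.029). The lower ones were P4hb, a protein disulfide isomerase, with -0.27 ± 0.06, the small Maf factor Mafg with -0.37 ± 0.08, and Fn3krp, a kinase that acts on glycated proteins, with -0.40 ± 0.09, at adjusted p of 0.0219 to 0.0239. With 1 array left out these 3 calls and that of ENSRNOT00000054974 were often lost, with limma adjusted p of up to 0.0868. P4hb lost it without any one P20 array or P200 replicate 2, and Mafg without P20 replicate 2, 3 or 4 or P200 replicate 3. Fn3krp lost it without P20 replicate 2, 3 or 4 or P200 replicate 1 or 2, and ENSRNOT00000054974 without P20 replicate 1, 2 or 3 or P200 replicate 1 or 3. With the slide row as a block, where each row holds the groups 3 to 1, none of the 4 passed, at limma adjusted p of 0.0886 for P4hb, 0.0794 for Mafg, 0.0785 for Fn3krp and 0.0581 for ENSRNOT00000054974. With the replicate number as a block P4hb and Mafg did not pass, at 0.0578 and 0.0766. RGD1306926 did not pass with the array median as scale (adjusted p = 0.445) or with no filter on dim probes (0.0734).

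**Figure D5:**
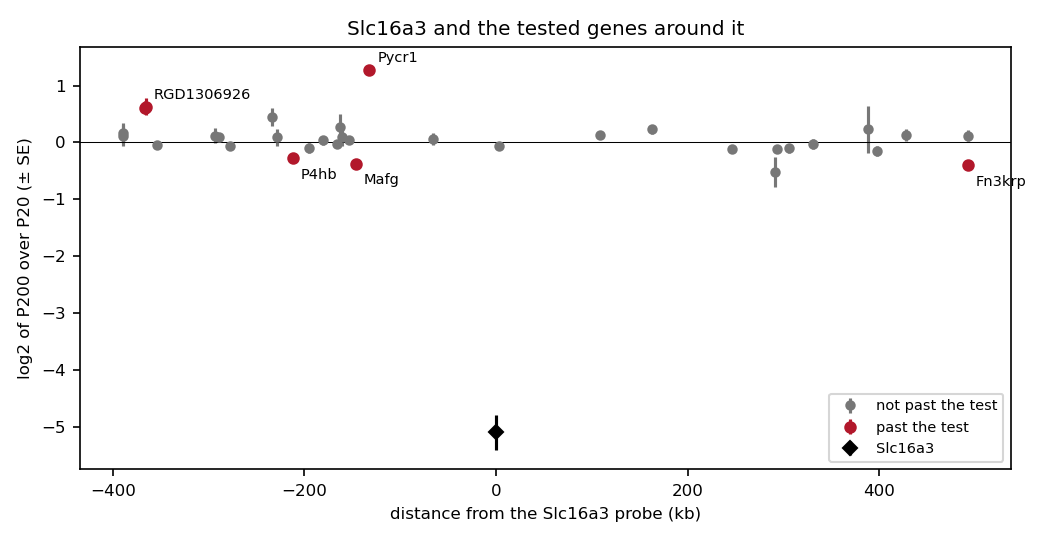
Log2 change of P200 over P20 with its SE for the 33 tested genes within 500 kb of the Slc16a3 probe, by distance in kb, with genes past the test in red and Slc16a3 as a black diamond. The neighbours stay between -0.52 and 1.27, while Slc16a3 lies at -5.09.

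The 5 genes whose values ran most like those of Slc16a3 over the 8 arrays were Camp, Ehd1, Abcb1b, Irak2 and Arhgap26, with Pearson r of 0.996, 0.996, 0.994, 0.993 and 0.993. Such likeness is common here, since 520 of 15650 genes had r above 0.9, and most of it is the difference between the groups. After the group means were taken out, r was 0.886, 0.929, 0.889, 0.853 and 0.754 in the same order, over P200 values of Slc16a3 that lie in background. The 5 genes were picked by r over the same 8 arrays. That choice favours a high r here too, so these values are no separate support for the likeness. Camp, a cathelicidin antimicrobial peptide, changed by -1.13 ± 0.09 (limma adjusted p = 5.16e-05), and Ehd1, which acts in endocytic recycling, by -1.39 ± 0.12 (limma adjusted p = 0.00011). Abcb1b, a drug efflux pump, changed by -2.48 ± 0.21 (limma adjusted p = 8.01e-05) with 1 P200 array above background, or by -1.01 with normexp correction. Irak2, a kinase of Toll-like receptor signalling, changed by -0.45 ± 0.06 (limma adjusted p = 0.0015), a call lost with the array median as scale (adjusted p = 0.737). Arhgap26 was lower at P200 (limma adjusted p = 2.33e-07), by 34.1-fold against the same kind of floor, and none of its P200 arrays was above background. Its fitted change was -5.90, or -2.54 with normexp correction and -3.05 with the uncorrected spot median, the last 2 smaller than that fold.

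The start regions of the 10 genes were read from RefSeq on assembly GRCr8, as 250 bases before and 50 after the annotated start, with 11 windows because Hk1 has 2. The core of the hypoxia-inducible factor's binding motif, searched as ACGTG on both strands, was present for 7 of the 10 genes, and in 19.3% of 33469 such windows in the RefSeq table. It was found in the windows of Slc16a1, Slc16a7, Bsg, Ldha, Slc2a1, Pfkfb3 and Hk1, and these letters were not in those of Slc16a3, Hk2 and Ldhb. The variant GCGTG was present for 5 of the 10 genes and in 29.7% of windows. The Slc16a3 window held 7 CG dinucleotides, as did the median window, against 39 for Slc16a1 and 35 for Bsg. The counts were 29 for Ldha, 25 for Slc2a1, 20 for Pfkfb3 and 18 for Hk2. Ldhb had 12, Slc16a7 had 8, and the 2 Hk1 windows had 19 and 3. Both motifs contain a CG, and most of these windows held more CG than the median window. The shares over all windows were not matched for CG, and they count windows where the 7 and 5 count genes. An excess of either motif was not tested.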

How the data were processed

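RNA of 8 cultures was hybridised to single-colour (Cy3) Agilent rat arrays. Agilent Feature Extraction 11.0.1.1 read the slide image (per the submitters' processing notes). The scanner files as deposited hold linear intensity per spot, per the file headers already background-subtracted within each array (processed signal) but not normalized between arrays. The deposited series matrix holds spot median intensity, of which 100.0% of values equal a scanner file's, and its P200 columns 1 to 4 are scanner arrays 2, 3, 4 and 1. Replicate numbers here follow the scanner files.

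Controls (4259 of 62976 spots), outlier spots and 84 probes without a usable spot on some array were left out. Spots of a probe were averaged on the log2 scale, and the 75th percentile over 45514 probes was subtracted. A probe entered if above background on all 4 arrays of a group (19458 probes), and the probe of a gene with the highest mean represents it (15651 genes, named through RefSeq GRCr8 by accession for 21109 probes and by symbol for 7108, the rest keeping the files' name). Other probes of a gene were read from a fit over all entering probes. P200 and P20 were compared with limma 3.58.1 in R 4.3.3 (lmFit, eBayes, no covariate, two-sided), and pairs of genes by exact permutation with scipy 1.17.1. Folds against a floor use the lowest signal above background on each dim array. They are not strict limits, since spots below detection can exceed that signal. The third planned pair, Hk2 with Hk1, was not compared because Hk1 was not above background.

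Alternatives were other scalings, background corrections, filters, probe summaries, blocks and leaving out each array. Array signal over background and the number of arrays limit the precision. The members, lists and tests were chosen with earlier results of these data known. Named genes are the 10, the list genes past the test or else the 2 with the lowest adjusted p, the tested genes within 500 kb of Slc16a3 (the called and the nearest by name), and the 5 most like it. The procedure was tested on simulated data.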

Additional observations from a re-analysis of the deposited data

Results flagged for a closer look

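The Ldha probe A_64_P016403 had 1 array far from the other 3 in each group. At P200, replicate 4 read 8.31 and the others between 8.11 and 8.14. At P20, replicate 4 read 6.90 and the others between 8.18 and 8.25. The gap divided by the group's range was 0.836 at P200 and 0.948 at P20, above Dixon's critical value for 4 samples in both. A total of 52 groups were examined and 2 met the rule, which chance meets in about 1 group of 20. The other Ldha probes read 8.72 and 6.29 on P200 replicate 4, and 8.30 and 6.32 on P20 replicate 4.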

How the results depend on the processing

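Slc16a3 was lower past the threshold in all 8 fits with 1 array left out and in 12 of 12 other settings that tested it, with changes between -5.43 and -2.38 and limma adjusted p no higher than 0.000188. It was not tested, and 0 of the 7 genes left passed, when probes had to be above background on all 8 arrays. None of the 7 other tested genes passed in any of 22 settings, and the sign of Ldha and Slc2a1 varied among them (-0.04 to 0.12 and -0.13 to 0.02). Genes higher and lower at P200 numbered 938 and 866, 286 and 367 with the array median as scale, and 389 and 423 with no filter on dim probes, where 36121 genes were tested; the cause of the fall with the array median was not tested. Under array median scaling the calls of Slc16a6, Ldhd, Pdk2, Irak2 and RGD1306926 were among those lost, with limma adjusted p of 0.281, 0.844, 0.898, 0.737 and 0.445. The changes themselves moved little, to -0.63, 0.46, 0.45, -0.49 and 0.57 in that order. The SE was 0.262 for each of these genes, against 0.061 to 0.115 in the main fit. That SE was not particular to them. Under the same scaling it was also 0.262 for Slc16a3, Slc16a1 and Bsg, against 0.312, 0.068 and 0.057 in the main fit. Leaving out 1 array gave 665 to 866 genes higher and 601 to 829 lower. Replicate numbers of the scanner arrays did not pair the samples. Deviations of same-numbered arrays correlated at 0.025, 0.134, -0.003 and 0.281, and P200 replicate 2 correlated best with P20 replicate 1. By the numbering of the series matrix the correlations were 0.225, 0.066, 0.099 and -0.111, and a block by that numbering was not fitted. With the replicate number as a block, Slc16a3 changed by -5.09 (adjusted p = 0.000188) and 785 genes were higher and 718 lower. The difference between Slc16a3 and Slc16a1 lay between -5.31 and -4.76 with 1 array left out, and between -4.97 and -2.26 in other settings. The median of monocarboxylate and pyruvate handling was 0.08 with no filter, under which the median of all genes was 0.10, and the median of the phosphofructokinase step was -0.08 without P200 replicate 2. The 75th percentile over spots and the raised Slc16a3 values were settings chosen after seeing the data.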
